A study of Mus musculus with 2 samples.

Results

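The nuclear receptor superfamily was followed in CE1-4 cells, a line from mouse prostate cancer, through a list of 41 receptor genes chosen by symbol. All 41 matched a row of the deposited table of 23420 gene symbols. Stranded total RNA sequencing gave 1 library of untreated cells, with 16908429 counts, and 1 library of cells given prostaglandin E2 (PGE2) for 6 h, with 17582808 counts. The labels name no vehicle, no PGE2 dose and no time for the untreated cells, so vehicle, culture time and PGE2 cannot be told apart. Neither group was replicated, so a ratio below compares these libraries, has no replicate check and carries no p-value. In a bulk library, a transcript in fewer cells and less of it per cell cannot be told apart.

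Nuclear receptors are transcription factors, most of which bind DNA through a domain built on a pair of zinc fingers and bind a small fat-soluble ligand through a separate domain. Steroid receptors wait for hormone in a complex with heat shock proteins and act as homodimers, whereas the retinoic acid, thyroid hormone, vitamin D, fatty acid and oxysterol receptors pair with a retinoid X receptor (RXR). Orphan receptors have no settled natural ligand. In the prostate the family is known for steroid receptors in epithelium and stroma and for retinoid and vitamin D control of epithelial growth.

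The labelled origin was checked against markers. The luminal keratin gene Krt8 stood at 1256 CPM (counts relative to the library total, after scaling between the libraries) without treatment and the prostate homeobox gene Hoxb13 at 15.8 CPM. The basal marker Krt5 had 0 and 2 counts and Trp63 6 and 7. The leukocyte marker Ptprc had 0 and 1 count and the endothelial marker Cdh5 none.

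Of the 41 receptors, 24 reached 1 CPM in at least 1 library, a level of 16.9 counts untreated and 17.6 treated. A further 8 had some counts below that level, and 9 had 0 counts in both libraries. A count of 0 allows up to 0.178 CPM in the untreated and 0.170 CPM in the treated library, taken as 3 counts. Together the members held 9763 counts (0.0577% of the library) without treatment and 10060 counts (0.0572%) after PGE2.

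The receptors are best compared with each other per length, as TPM (counts per kilobase of merged annotated exons, scaled to the same total in each library). On this scale the glucocorticoid receptor gene Nr3c1 and the fatty acid receptor gene Pparg led the untreated library. Next came the orphan receptor gene Nr2f2 (COUP-TFII), the retinoic acid receptor gene Rarg and the orphan gene Nr2f6 (EAR2). The leading 3 held 55.9% of the summed TPM of the members without treatment and 56.0% after PGE2, and the leading 5 held 69.2% and 68.4%. Nr3c1 was at 97.7 TPM (94.3 to 101, exact Poisson interval at 95%), rank 1841 among the 21777 symbols with a length. The median TPM of all genes over 1 CPM was 23.8, so 4 of the members lay above it in the untreated library and the rest below.

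**Figure D1:**
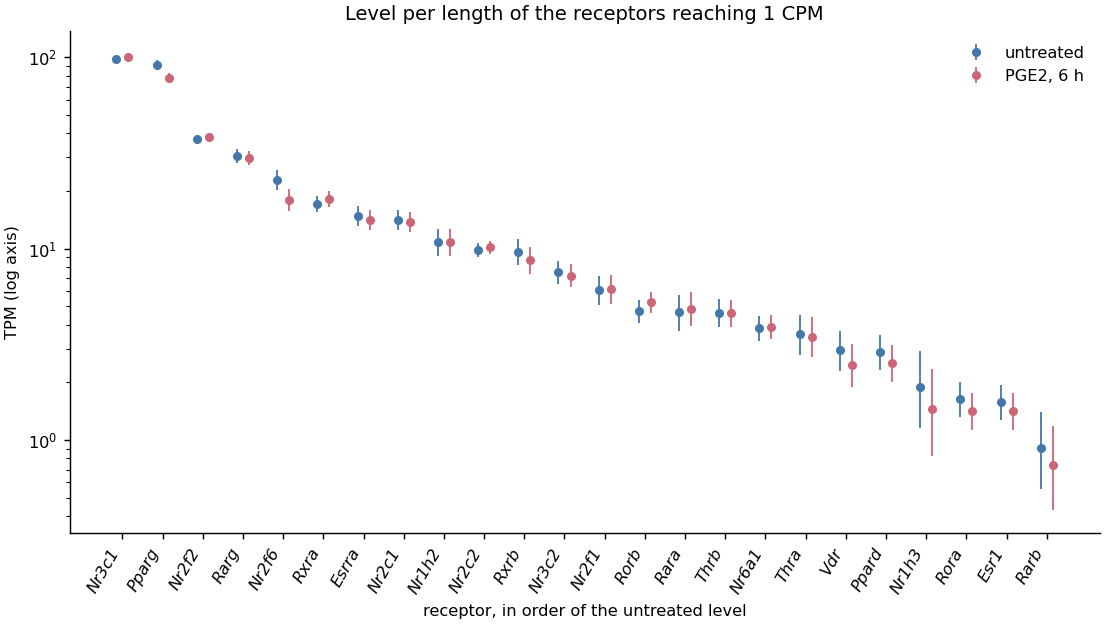
Level per length (TPM, log axis) of the 24 receptors that reached 1 CPM, in order of their untreated level, with exact Poisson 95% intervals for untreated (blue) and PGE2-treated (red) cells, 1 library each. Nr3c1 and Pparg stand above the others in both libraries, and no tested receptor moves by more than 1 place between them.

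Many neighbours in this order could not be separated. Of 23 neighbouring pairs, 19 had overlapping counting intervals in the untreated library and 18 in the treated one. Without treatment, Nr3c1 and Pparg overlapped (90.8 TPM for Pparg, 85.5 to 96.2), while Pparg against Nr2f2, Nr2f2 against Rarg, Rarg against Nr2f6 and Nr2f6 against Rxra did not. After PGE2, Nr3c1 (100.3 TPM) and Pparg (78.0 TPM) no longer overlapped, and Nr2f6 and Rxra did. Below Rxra, neighbours overlapped in the untreated library from Rxra at 17.1 TPM down to Rarb at 0.904 TPM. The same 10 receptors filled the top 10 when the longest transcript was used as the length.

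The DNA-binding domain sorts the members into classes, and its first zinc finger is shown for 8 of the receptors the results turn on. The stretch of 75 coding bases, 5′ to 3′, was read from GENCODE M21 transcripts (GRCm38) by a search for the finger's cysteine spacing. The search also required a lysine and phenylalanines at set places after the last of these cysteines. Capitals mark the 15 bases that encode the P-box, the residues that choose the DNA half-site. The first 3 sequences are the retinoic acid receptors, and each of the others stands for a further receptor or P-box class in these cells.
Rara: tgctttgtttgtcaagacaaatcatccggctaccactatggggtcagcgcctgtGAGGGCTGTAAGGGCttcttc
Rarb: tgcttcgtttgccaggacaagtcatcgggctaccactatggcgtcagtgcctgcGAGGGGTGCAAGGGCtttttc
Rarg: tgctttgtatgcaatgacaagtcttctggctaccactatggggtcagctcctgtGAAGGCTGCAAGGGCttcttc
Rxra: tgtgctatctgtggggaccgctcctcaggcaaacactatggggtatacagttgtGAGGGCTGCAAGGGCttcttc
Nr2f2: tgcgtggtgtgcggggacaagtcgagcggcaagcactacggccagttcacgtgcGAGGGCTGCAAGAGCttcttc
Nr2f6: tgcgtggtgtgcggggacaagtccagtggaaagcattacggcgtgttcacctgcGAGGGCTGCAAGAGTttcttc
Esr1: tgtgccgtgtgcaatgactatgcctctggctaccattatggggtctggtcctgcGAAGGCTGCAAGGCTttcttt
Esrra: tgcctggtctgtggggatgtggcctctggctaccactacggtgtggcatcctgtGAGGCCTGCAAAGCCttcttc

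The pattern was found in 37 members, which fell into 7 classes by the residues the P-box encodes. The class of Rarg, Rxra and Pparg held 22 members, of which 17 reached 1 CPM. The class of Nr2f2 and Nr2f6 held 3, all of them at 1 CPM or more. That of Nr3c2, shared with Nr3c1 and Pgr, held 3, of which 2 did. The estrogen receptors Esr1 and Esr2 formed a class in which 1 of 2 did, and the estrogen-related receptors one in which 1 of 3 did. The class of Hnf4a and Hnf4g and that of Nr5a1 and Nr5a2 had 2 members each and none at 1 CPM. Nr2e1, Nr2e3, Nr0b1 and Nr0b2 did not match the pattern. Because the pattern asks for more than the cysteines, the lack of a match does not show that a finger is absent. Isotype pairs differed in this stretch at 4 of 75 bases (Nr2f1 and Nr2f2) to 18 (Ppard and Pparg). Rara and Rarg differed at 10, Rarb and Rarg at 13 and Nr2f2 and Nr2f6 at 8.

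Among the steroid receptors the glucocorticoid receptor was by far the most abundant in both libraries. Nr3c1 (chromosome 18, 39410545 to 39519421, GRCm38) had 3152 counts untreated and 3382 treated, 187 and 192 CPM. Its log2 ratio (treated CPM over untreated CPM) was 0.04 (-0.03 to 0.11, a 95% Clopper-Pearson interval that covers counting error only, as all ratio intervals here do). The mineralocorticoid receptor gene Nr3c2 (chromosome 8, 76899442 to 77245012) had 205 counts in each library, 12.2 and 11.6 CPM, a log2 ratio of -0.06 (-0.35 to 0.22). Per length, Nr3c1 at 97.7 and 100.3 TPM stood far above Nr3c2 at 7.54 and 7.22 TPM.

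The sex steroid receptors of the list were scarce. Esr1, encoding estrogen receptor alpha (chromosome 10, 4611593 to 5005614), had 91 and 85 counts, 5.40 and 4.82 CPM, a log2 ratio of -0.16 (-0.61 to 0.28). Esr2, encoding estrogen receptor beta, had 7 counts in each library, 0.415 and 0.397 CPM, a log2 ratio of -0.06 (-1.80 to 1.68). The progesterone receptor gene Pgr, itself a classical estrogen target, had 11 counts in each, 0.652 and 0.624 CPM, a log2 ratio of -0.06 (-1.41 to 1.28). At these counts a 2-fold difference in Esr2 or Pgr was not detectable.

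The chaperones that hold steroid receptors ready for hormone were highly expressed. All 14 members of that list were tested (reached 1 CPM), and 5 had an interval above 1 and 1 below it. Over all 11387 tested genes these shares were 6.61% and 5.65%, and among genes with at least 10000 counts, as 8 of these 14 have over both libraries, 33.4% and 12.9%. Ptges3, encoding the HSP90 partner p23, had a log2 ratio of 0.16 (0.13 to 0.20) and Hsp90aa1 one of 0.12 (0.10 to 0.14). Stip1, encoding the adaptor between HSP70 and HSP90, had -0.06 (-0.11 to -0.01). The immunophilin genes Fkbp4 (0.02, -0.08 to 0.11) and Fkbp5 (-0.04, -0.24 to 0.17) had intervals that included 1. Another immunophilin gene, Ppid, had an interval above 1 (0.09, 0.0070 to 0.17). So did 14.2% of the genes in its class of 3000 to below 10000 counts.

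Genes known to respond to glucocorticoid receptor were near a ratio of 1. Of 16 listed, 13 were tested, 1 had an interval below 1 and none above, and the median log2 ratio was -0.03 against -0.0014 over all tested genes. That 1 gene was Anxa1, encoding annexin A1, at -0.03 (-0.05 to -0.0047) with 25257 and 25869 counts. Of all tested genes 5.65% had an interval below 1, and of its class of at least 10000 counts 12.9%, so this count is near the background. Tsc22d3, encoding the leucine zipper protein GILZ, had 313 and 315 counts and a log2 ratio of -0.05 (-0.29 to 0.18). Of the 11 genes listed as estrogen receptor targets 8 were tested, 2 with an interval above 1 and 1 below. The shares over all tested genes were 6.61% and 5.65%, and 33.4% and 12.9% in the class of Ccnd1 and Ctsd (at least 10000 counts). In the class of Areg, 3000 to below 10000 counts, 14.2% lay above 1. The targets above 1 were Areg, an EGF receptor ligand (0.15, 0.09 to 0.21), and Ccnd1, encoding cyclin D1 (0.03, 0.0086 to 0.05). The target below 1 was Ctsd, encoding cathepsin D (-0.05, -0.07 to -0.02).

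Rarg was the main retinoic acid receptor. It lies on chromosome 15 (102234938 to 102257517) and had 546 counts untreated and 558 treated, 32.4 and 31.6 CPM, a log2 ratio of -0.03 (-0.21 to 0.14). Rara had 85 and 93 counts and a log2 ratio of 0.07 (-0.37 to 0.51). Rarb (chromosome 14, 16430839 to 16819156) had 20 and 17 counts, 1.19 and 0.964 CPM, a log2 ratio of -0.29 (-1.32 to 0.71). Rarg held 84.6% of the RAR level per length without treatment and 84.2% after PGE2, and Rarb 2.51% and 2.08%. By counts, where the interval is exact, Rarg held 83.9% (80.8 to 86.6) and 83.5% (80.5 to 86.3).

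Rarb is the retinoic acid receptor that retinoic acid itself induces, through a pair of half-sites in its promoter. The RefSeq promoter window of Rarb (chr14:16575427-16575726, minus strand, GRCm38.p6, 250 bases before to 50 after the start) is shown because it holds that element. Capitals mark the match to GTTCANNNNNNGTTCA, searched on both strands.
Rarb: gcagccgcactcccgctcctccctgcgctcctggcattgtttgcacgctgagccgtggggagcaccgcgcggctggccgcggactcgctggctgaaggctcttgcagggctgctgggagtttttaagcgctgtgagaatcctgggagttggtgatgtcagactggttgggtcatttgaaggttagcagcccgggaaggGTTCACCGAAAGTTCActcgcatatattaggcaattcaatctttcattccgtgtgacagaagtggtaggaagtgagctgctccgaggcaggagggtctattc

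This was the 1 match among 58 promoter windows of 37 members. The motif was in 25 of all 32851 RefSeq windows, 0.0761%. A match is a description of the letters and does not show binding. The motif has the half-site letters and spacing of the known Rarb element, so its match in Rarb was fixed in advance. Elements with other half-site letters or spacings were not searched for, so these counts do not show that other windows lack them. The exons of Rarb also overlap those of Top2b on the opposite strand, over 34.1% of its merged exonic bases. Top2b had 7263 and 8056 counts, a log2 ratio of 0.09 (0.04 to 0.13). The strand setting of the counting is not given in the sources used here, so the counts of Rarb are uncertain beyond their interval.

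Genes of retinoid supply were unevenly present. Of 17 listed, 8 were tested, 1 with an interval above 1 and 2 below. The former was Aldh1a3, encoding an enzyme that makes retinoic acid, with 1523 and 1898 counts, 90.3 and 108 CPM, a log2 ratio of 0.25 (0.16 to 0.35). Another such enzyme gene, Aldh1a1, had 619 and 574 counts and a log2 ratio of -0.17 (-0.34 to -0.0070). Dhrs3, encoding a retinaldehyde reductase, had 1056 and 989 counts and -0.16 (-0.29 to -0.03). Rdh10, encoding a retinol dehydrogenase, had the highest level per length of the list, 138 TPM untreated, with a log2 ratio of 0.0020 (-0.08 to 0.08). Among all genes of 1000 to below 3000 counts over both libraries, which include Dhrs3 and Aldh1a1, intervals lay above 1 for 5.06% and below it for 6.13%. For the class of Aldh1a3, 3000 to below 10000 counts, these shares were 14.2% and 6.47%.

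Known retinoic acid targets ranged from abundant to 0 counts. Tgm2, encoding a transglutaminase, had 2325 and 2491 counts, 120 and 123 TPM, a log2 ratio of 0.04 (-0.05 to 0.12), and Dhrs3 stood at 85.9 TPM untreated. Cyp26a1, encoding the enzyme that clears retinoic acid, had 0 counts in both. Cyp26b1 and Stra6, encoding the retinol uptake receptor, had 2 counts in each library. Crabp2, encoding a retinoic acid carrier, had 23 and 13 counts and a log2 ratio of -0.86 (-1.99 to 0.15). Of the 12 listed targets 5 were tested, 1 of them with an interval below 1 (Dhrs3, above) and none with one above, against 5.65% and 6.61% of all tested genes.

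The retinoid X receptors, the shared partners, were represented by Rxra and Rxrb. Rxra (chromosome 2, 27676440 to 27762957) had 392 and 435 counts, 23.2 and 24.7 CPM, a log2 ratio of 0.09 (-0.11 to 0.29). Rxrb had 161 and 151 counts and a log2 ratio of -0.16 (-0.49 to 0.17), and Rxrg had 0 and 1 count. Rxra held 63.9% of the RXR level per length untreated and 67.5% after PGE2. The RXR genes summed to 26.7 TPM in the untreated and 26.9 TPM in the treated library. The 14 listed partners of RXR (the RAR, PPAR, TR and LXR genes, Vdr, Nr1h4, Nr1i2 and Nr1i3) summed to 154 and 139 TPM, 5.76-fold and 5.16-fold the RXR sum. Without Pparg these partners came to 2.37-fold and 2.26-fold of it. These sums were chosen after the levels had been seen.

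**Figure D2:**
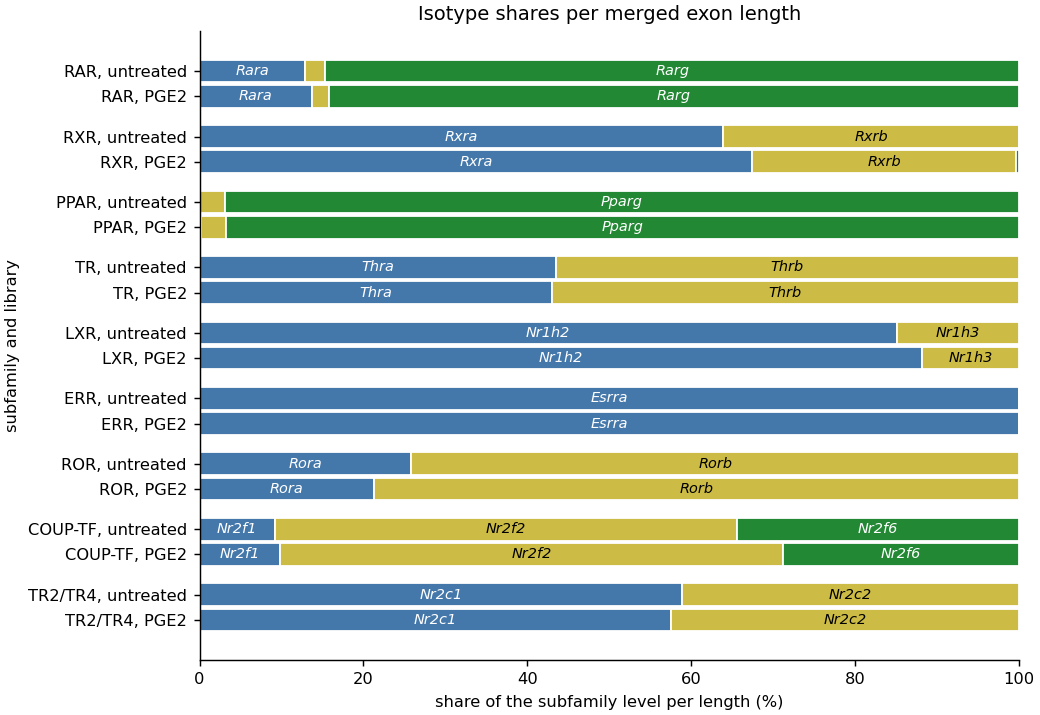
Share of each isotype in the level per length of its subfamily (percent, horizontal bars that sum to 100) in the untreated and the PGE2-treated library, 1 library each. Rarg, Pparg, Nr1h2 and Esrra each hold over 80% of their subfamily in both libraries.

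Thyroid hormone and vitamin D receptors were all present at low levels. Thra had 69 and 70 counts (log2 ratio -0.04, -0.54 to 0.46) and Thrb 144 and 149 (-0.01, -0.36 to 0.33). Thrb held 56.5% of their level per length untreated, but 45.2% with the longest transcript as the length, so no order is given for this pair. The exons of Thra overlap those of the clock repressor gene Nr1d1 on the opposite strand (263 bases), and Nr1d1 had 141 and 154 counts. The vitamin D receptor gene Vdr (chromosome 15, 97854425 to 97910630) had 70 and 61 counts, 4.15 and 3.46 CPM, a log2 ratio of -0.26 (-0.78 to 0.25). Cyp24a1, the gene most strongly induced by vitamin D, had 0 counts in both libraries. In the list of vitamin D receptor targets 6 of 10 were tested, with 1 interval above 1 (Spp1, encoding osteopontin, 0.03, 0.0088 to 0.05) and none below, against 6.61% above 1 over all tested genes and 33.4% in its class of at least 10000 counts. In that of thyroid hormone receptor targets 6 of 8 were tested, all with an interval that included 1. The list of steroid, vitamin D and thyroid hormone metabolism had 8 of 21 members tested, again all with an interval that included 1.

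Pparg, encoding the fatty acid receptor PPAR gamma, was lower in the treated library. It lies on chromosome 6 (115360951 to 115490399) and had 1126 counts untreated and 1011 treated, 66.8 CPM (62.9 to 70.8) against 57.3 CPM (53.9 to 61.0). The log2 ratio was -0.22 (-0.34 to -0.10), which is 0.859 of the untreated level. Among the 2906 tested genes with 1000 to below 3000 counts, log2 ratios had a standard deviation of 0.0891, and 6.13% had an interval below 1. No replicate shows how far Pparg varies between cultures.

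Pparg made up nearly all of the PPAR level. It held 96.9% per length untreated and 96.7% treated. Ppard, encoding the broadly expressed PPAR delta, had 91 and 83 counts, 5.40 and 4.71 CPM, a log2 ratio of -0.20 (-0.64 to 0.25). Ppara, encoding the fasting receptor of liver, had 0 and 2 counts.

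Of 17 listed PPAR targets, 13 were tested, 4 with an interval below 1 and none above, and the median log2 ratio was -0.07. The share below 1 was 5.65% of all tested genes, and 12.9% of those with at least 10000 counts, the class of Cpt1a and Plin2. It was 6.13% in the class of Acadl (1000 to below 3000 counts) and 6.47% in that of Hadha (3000 to below 10000). The 4 genes included Acadl, encoding a fatty acid oxidation enzyme (59.4 and 52.6 CPM, log2 ratio -0.18, -0.31 to -0.05), and Cpt1a, encoding the carnitine transferase that admits fatty acids to mitochondria (328 and 308 CPM, -0.09, -0.15 to -0.04). Hadha, a further oxidation enzyme gene (-0.08, -0.16 to -0.0033), and Plin2, encoding a lipid droplet coat protein (-0.07, -0.13 to -0.02), were the others. Pdk4 (52 and 37 counts, -0.55, -1.20 to 0.08) and Angptl4 (116 and 104 counts, -0.22, -0.62 to 0.17), both strongly PPAR-responsive in other cells, had intervals that included 1. Adipocyte targets were near 0, with 0 and 2 counts for Fabp4 and 3 and 1 for Cd36. PPAR alpha, delta and gamma share targets, so the list does not separate them.

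The oxysterol receptors (LXR) were represented mainly by Nr1h2, encoding LXR beta, with 152 and 159 counts, 9.01 and 9.02 CPM, a log2 ratio of 0.00068 (-0.33 to 0.33). Nr1h3, encoding LXR alpha, had 20 and 16 counts (-0.38, -1.43 to 0.64). Nr1h2 held 85.1% of the LXR level per length untreated and 88.2% treated. Of 12 listed LXR targets 7 were tested, 2 with an interval below 1 and none above, and the median log2 ratio was -0.12. Below 1 lay 5.65% of all tested genes, 5.21% of the class of Abca1 (300 to below 1000 counts) and 12.9% of that of Scd1 (at least 10000). These targets were Abca1, encoding the cholesterol exporter (226 and 182 counts, 13.4 and 10.3 CPM, -0.38, -0.67 to -0.09), and Scd1, encoding a fatty acid desaturase (-0.08, -0.12 to -0.05). The bile acid and xenobiotic receptors of liver and gut were close to absent, with 4 and 1 counts for Nr1h4 (FXR), 3 and 0 for Nr1i3 (CAR) and 0 in both for Nr1i2 (PXR). Of the exonic bases of Nr1i3, 74.9% overlap Tomm40l on the opposite strand.

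COUP transcription factors, orphan receptors of mesenchymal and vascular development, had the highest summed level per length of the orphan subfamilies in the list, 66.2 TPM untreated. Nr2f2 (chromosome 7, 70351944 to 70366735) had 1352 and 1450 counts, 80.2 and 82.2 CPM, a log2 ratio of 0.04 (-0.07 to 0.14). Nr2f1 had 130 and 137 counts, 7.71 and 7.77 CPM, a log2 ratio of 0.01 (-0.35 to 0.37). Per length Nr2f2 was 6.14-fold above Nr2f1 untreated and 6.25-fold above it treated.

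Nr2f6, the other member of that subfamily, was lower in the treated library. It lies on chromosome 8 (71374123 to 71381960) and had 286 counts untreated and 235 treated, 16.96 CPM (15.1 to 19.0) against 13.3 CPM (11.7 to 15.1). The log2 ratio was -0.35 (-0.60 to -0.09), which is 0.786 of the untreated level. Among 3013 tested genes with 300 to below 1000 counts, log2 ratios had a standard deviation of 0.141, and 5.21% had an interval below 1. The exons of Nr2f6 overlap those of Ocel1 on the opposite strand over 54.4% of their bases. Ocel1 had 84 and 65 counts and a log2 ratio of -0.43 (-0.92 to 0.05), and its part in the counts of Nr2f6 was not tested. Per length, Nr2f6 held 34.5% of the COUP-TF level untreated and 28.8% treated.

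The other tested orphan receptors had intervals that included 1. Esrra, encoding the estrogen-related receptor alpha that acts on mitochondrial genes (chromosome 19, 6910977 to 6921813), had 274 and 272 counts, 16.2 and 15.4 CPM, a log2 ratio of -0.07 (-0.32 to 0.17). Its relatives Esrrb and Esrrg had 0 counts in both libraries. All 12 listed ERR targets were tested, 2 with an interval above 1 and none below. Above 1 lay 6.61% of all tested genes and 33.4% of those with at least 10000 counts, the class of Cycs. In the class of Tfam, 1000 to below 3000 counts, the share was 5.06%. The ERR targets above 1 were Tfam, encoding the mitochondrial transcription factor A (0.11, 0.0013 to 0.21), and Cycs, encoding cytochrome c (0.05, 0.00042 to 0.10).

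The testicular receptors Nr2c1 (TR2) and Nr2c2 (TR4), repressors of embryonic globin genes, were both present. Nr2c1 (chromosome 10, 94148023 to 94197211) had 272 and 278 counts, 16.1 and 15.8 CPM, a log2 ratio of -0.03 (-0.28 to 0.21). Nr2c2 (chromosome 6, 92091390 to 92174294) had 616 and 664 counts, 36.5 and 37.7 CPM, a log2 ratio of 0.04 (-0.12 to 0.20). Per merged length Nr2c1 was the higher, with 58.9% of the pair, but per longest transcript it held 47.5%, so no order is given. The exons of Nr2c2 overlap those of Mrps25 on the opposite strand over 30.7% of their bases, and Mrps25 had 523 and 635 counts.

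Rorb, encoding a receptor best known from retina and brain, exceeded its relative Rora. Rorb (chromosome 19, 18930605 to 19111196) had 219 and 254 counts, 12.99 and 14.4 CPM, a log2 ratio of 0.15 (-0.12 to 0.42). Rora, which also drives clock genes, had 90 and 81 counts (-0.22, -0.67 to 0.23), and Rorb held 74.2% and 78.7% of the pair per length. Nr6a1, the germ cell nuclear factor that silences pluripotency genes (chromosome 2, 38723370 to 38927688), had 174 and 185 counts, 10.3 and 10.5 CPM, a log2 ratio of 0.02 (-0.28 to 0.33).

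The remaining receptors were at or near 0. The atypical repressors Nr0b1 (DAX-1) and Nr0b2 (SHP), the neural receptors Nr2e1 and Nr2e3, Hnf4g of gut and Nr5a2 of liver and pancreas had 0 counts in both libraries. Nr5a1, the adrenal and gonadal factor SF-1, had 1 and 0 counts, and Hnf4a, a liver and gut receptor, 0 and 7. The treated level of Hnf4a was 0.397 CPM (0.160 to 0.818), an interval that includes the 0.178 CPM a count of 0 allows in the untreated library. Its log2 ratio, which rests on the prior of 0.5 counts, was 3.88. The counting interval of that ratio lay above 1, with a lower bound of 0.46 in log2 and no upper bound. Hnf4a did not reach 1 CPM, so it was not among the tested receptors. Hnf4a was singled out after its values had been seen. Of 747 genes with 0 untreated and at least 1 treated count, 5 (0.669%) had 7 or more. Of 4312 genes with a count but under 1 CPM in both libraries, 0.58% had an interval above 1 and 0.533% below.

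Over the whole superfamily list, the libraries were close. Of the 24 tested receptors none had an interval above 1 and 2 had one below it, Pparg and Nr2f6, which is 8.33% of the receptors. For the whole table these shares were 6.61% and 5.65% of 11387 genes, so the share of the receptors below 1 was near the background. None passed a 2-fold difference with an interval that excluded 1, against 0.0527% of all tested genes as higher and 0.255% as lower. The median log2 ratio of the 24 was -0.04, with 9 ratios above 1 and 15 below, and that of all tested genes was -0.0014. For 22 of the 24 the interval lay within 2-fold on either side, which was so for 92.4% of all tested genes. The other 2, Rarb and Nr1h3, had the fewest counts of the 24.

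**Figure D3:**
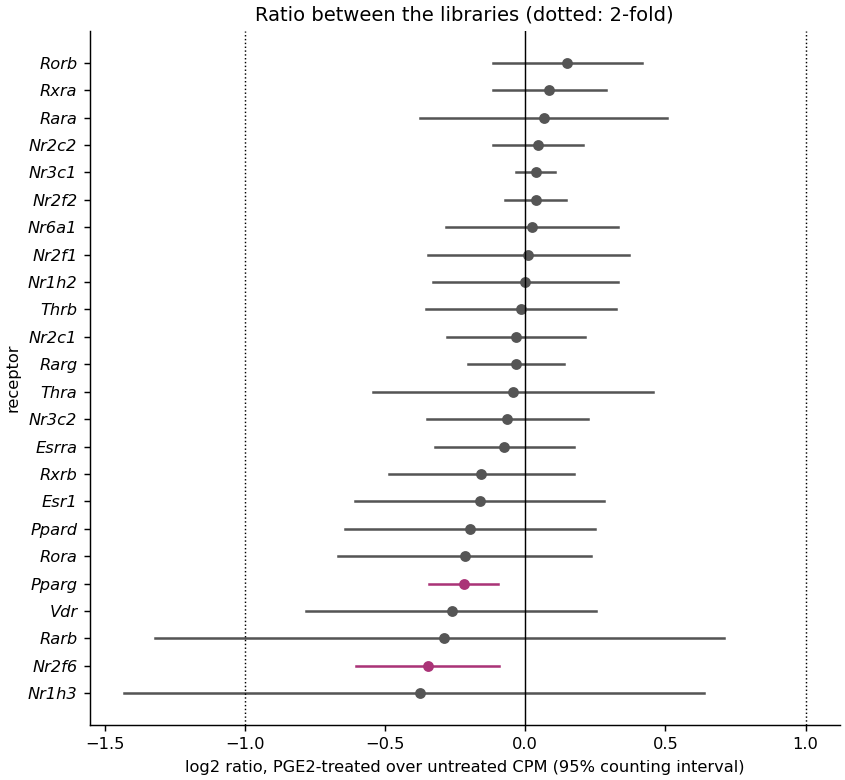
log2 ratio of PGE2-treated over untreated CPM for the 24 receptors that reached 1 CPM, with 95% Clopper-Pearson counting intervals. The intervals of Pparg and Nr2f6 (purple) lie below 0 (a ratio of 1), the others (grey) include it, and the widest belong to Nr1h3 and Rarb.

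**Figure D4:**
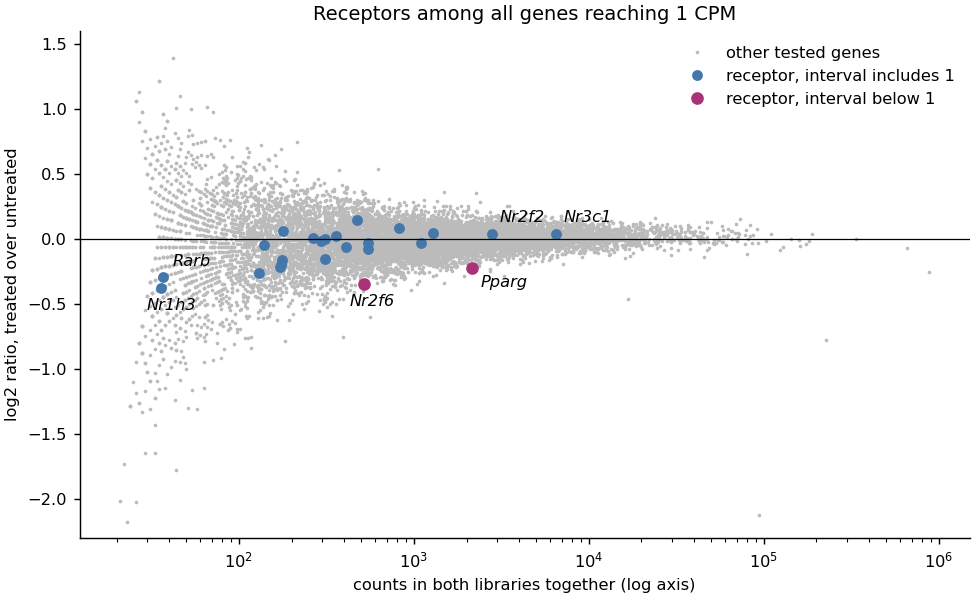
log2 ratio against counts in both libraries together (log axis) for all 11387 genes that reached 1 CPM (grey), with the receptors in blue and those with an interval below 1 in purple. The receptors lie inside the cloud of other genes, which narrows from a standard deviation of 0.418 at 30 to below 100 counts to 0.0652 at 3000 to below 10000.

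Coregulators, through which the receptors act on chromatin, were present throughout. Of 18 coactivators 16 were tested, 2 with an interval above 1 and none below, against 6.61% above 1 over all tested genes and 14.2% in their class of 3000 to below 10000 counts. These were Pnrc2, a proline-rich coactivator (0.14, 0.04 to 0.24), and Ncoa4, also the ferritin autophagy receptor (0.06, 1e-04 to 0.12). The PGC-1 genes were scarce, with 9 and 5 counts for Ppargc1a and 6 and 8 for Ppargc1b. All 11 corepressors were tested and all had intervals that included 1, among them Ncor1 (271 and 269.8 CPM, log2 ratio -0.0055, -0.06 to 0.05). Per length the corepressor complex member Tbl1xr1 led that list at 94.1 TPM untreated.

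**Figure D5:**
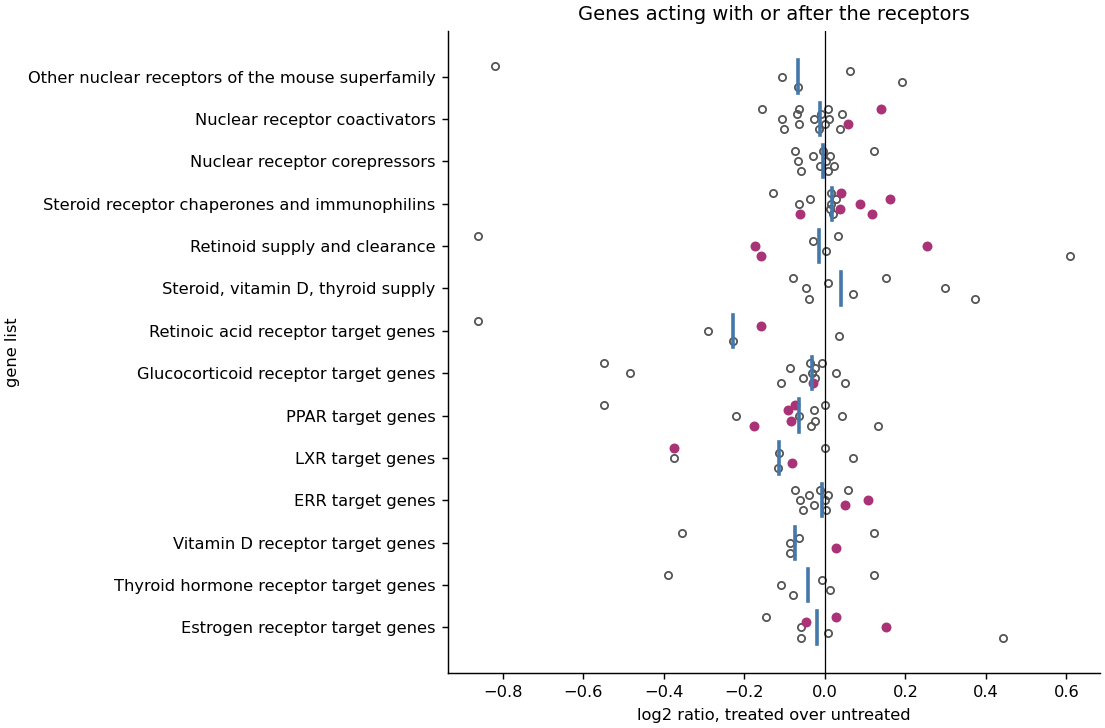
log2 ratio of treated over untreated CPM for the tested genes of 14 lists that act with or after the receptors, 1 list a row. Filled purple points have a counting interval that excludes a ratio of 1, open points do not, and the blue bar is the list's median, which is -0.07 for the PPAR and -0.12 for the LXR targets.

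A further 8 receptors complete the mouse superfamily and were not in the list. Of these, 5 were tested and all had an interval that included 1. The clock repressor gene Nr1d2 had 1906 and 1904 counts and 83.9 TPM untreated, a level between those of Pparg and Nr2f2. Nr4a1, an immediate early gene, had 24 and 14 counts (-0.82, -1.91 to 0.17).

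Promoters of present and absent receptors differed in CpG content as they did for genes at large. RefSeq windows were found for 37 members, and for each gene the window with the highest ratio of observed to expected CpG was used. That ratio was at least 0.6 in 15 of 22 receptors that reached 1 CPM (68.2%) and in 4 of 15 that did not (26.7%). Among all genes in the table the shares were 79.6% and 21.9%. The windows of Nr2f6 (chr8:71381903-71382202, minus strand) and Nr1i2 (chr16:38294775-38295074, minus strand), GRCm38.p6, serve as examples of a CpG-rich present and a CpG-poor absent receptor, with CG in capitals.
Nr2f6: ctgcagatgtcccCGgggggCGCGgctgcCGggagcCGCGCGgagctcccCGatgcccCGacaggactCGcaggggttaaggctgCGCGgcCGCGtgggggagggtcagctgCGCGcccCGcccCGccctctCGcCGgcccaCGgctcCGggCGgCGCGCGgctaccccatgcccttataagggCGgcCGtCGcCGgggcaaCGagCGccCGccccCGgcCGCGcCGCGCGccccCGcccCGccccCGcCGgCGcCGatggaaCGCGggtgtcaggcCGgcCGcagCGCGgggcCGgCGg
Nr1i2: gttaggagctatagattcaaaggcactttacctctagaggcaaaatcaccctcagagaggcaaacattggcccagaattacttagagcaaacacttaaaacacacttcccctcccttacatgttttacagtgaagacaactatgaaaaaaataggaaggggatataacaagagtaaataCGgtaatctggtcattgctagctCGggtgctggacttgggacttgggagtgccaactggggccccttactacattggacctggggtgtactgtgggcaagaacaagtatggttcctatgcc

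The Nr2f6 window held 53 CpG and a ratio of 1.04, and that of Nr1i2 held 2 and a ratio of 0.130. Among the abundant receptors, Nr2f2 had 2 CpG and a ratio of 0.109 in its window, the lowest of the 22. Rarg (0.504 in the window used) and Nr2c2 (0.599) also lay under 0.6, and Nr3c1 had no window among those used. One window per start does not cover alternative promoters that the table leaves out.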

How the data were processed

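RNA of CE1-4 cells was measured in 1 untreated and 1 PGE2-treated library. Per the labels' protocols, column-purified total RNA went into stranded library preparation. HTSeq, TopHat2, Bowtie, Trimmomatic and the mm10 build come from the submitters' processing notes. For versions, annotation and strand setting the sources used here give nothing. The table the authors deposited holds raw counts per gene symbol, tied to samples by column name.

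Counts were scaled with edgeR 4.0.16 (TMM; factors 0.997 and 1.003) in R 4.3.3. Ratios used a prior of 0.5 counts, and genes at 1 CPM or more in a library were taken as tested. TPM used merged exon lengths from GENCODE M21 (GRCm38, the assembly also called mm10), found for 21777 symbols that held 96.1% and 96.4% of the counts. Intervals cover counting error only, at 95%. With 1 library per group no count test was run. The ratio and its interval were tested on simulated counts. These were drawn with counting error alone, the error the interval assumes, so that test does not bear on variation between cultures. Sts matched no row.

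The members and lists were chosen with earlier results of these data known. Named were receptors that reached 10 CPM or had an interval excluding 1, 11 receptors whatever their values, and from each list up to 4 genes whose interval excluded 1 and up to 3 of the most abundant. Others were named after their values had been seen. A planned display of protein sequence was replaced by coding sequence, and that of Nr3c1, Nr3c2 and Pparg is not reported here. Alternatives were total-count, DESeq2 1.42.0 and upper quartile scaling, a prior of 5, minima of 5 CPM and none, a 99% interval, 1.5-fold, trends on abundance and on GC content and length, and other lengths.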

Additional observations from a re-analysis of the deposited data

How the results depend on the processing

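No paired analysis was possible because each group holds 1 library, and no library could be left out. Across the scalings, trends, minima and the 99% interval, 2 receptors, Pparg and Nr2f6, had an interval below 1. With no minimum on expression, 1 receptor (Hnf4a) had an interval above 1 and 1 passed the 2-fold rule as higher, against 0 in each case otherwise. The median log2 ratio stayed between -0.0516 and -0.0217. For the 22 tested receptors whose main interval included 1, every alternative ratio lay inside that interval. The alternative ratios of Pparg and Nr2f6 kept their sign and an interval below 1. Of 144 alternative ratios of the tested receptors 2 turned sign, Thrb (0.01 after the abundance trend) and Nr1h2 (-0.0022 after the GC and length trends). Both receptors have main intervals that include 1. Members reaching the minimum numbered 20 at 5 CPM and 32 with none. Isotype shares rest on the length used, by construction. With the longest transcript the untreated share was 56.6% for Rxra, 45.2% for Thrb, 65.4% for Nr2f2 and 47.5% for Nr2c1. From raw counts it was 70.9% for Rxra, 92.5% for Pparg, 67.6% for Thrb, 76.5% for Nr2f2 and 30.6% for Nr2c1. Depth limits the receptors under about 100 counts, whose intervals are the widest.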
